A study of Mus musculus with 6 samples.

Results

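The Notch pathway was examined in mouse calvarial osteoblasts through 10 genes chosen by name, the receptors Notch1, Notch2, Notch3 and Notch4, the ligands Jag1, Jag2 and Dll1, and the target genes Hes1, Hey1 and Heyl. All 10 were found among the 20659 genes that could be named on the array, with 12 probes between them. Primary osteoblasts were taken from the calvariae of 2 to 5 day old newborn CD1 mice, and each of 3 conditions was measured on 2 one-color Agilent arrays. Undifferentiated osteoblasts were harvested at confluence, differentiated osteoblasts were kept in differentiation medium for 30 days, and cabozantinib-treated osteoblasts were kept in the same medium for 30 days with 100 nM cabozantinib, an inhibitor of the MET and VEGFR2 tyrosine kinases. These are primary cultures from digested bone and can hold cells other than osteoblasts, and the labels do not say whether 2 arrays of a condition came from separate isolations, so p values measure only the spread between these samples, which may be technical. Each array's signal is a mean over all cells of a culture, in which fewer cells of a type and less RNA per cell cannot be told apart.

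Notch receptors are cell surface proteins that are activated by Jagged and Delta-like ligands on neighboring cells. Ligand binding leads to cleavage by ADAM proteases and γ-secretase, and the released intracellular domain joins the DNA-binding protein RBPJ and Mastermind-like coactivators to switch on target genes, best known among them the transcriptional repressors of the Hes and Hey families. In bone the pathway acts on osteoblast precursors, on mature osteoblasts and osteocytes and on osteoclast precursors, and its effect on osteoblasts depends on their stage.

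Levels are given as log2 signal relative to the 75th percentile of the probes on the same array, so a level of 0 lies at that percentile, and a difference of 1 is a 2-fold change. Levels of different genes come from different probes and are not compared. The scanner software calls each spot as well above background or not, and a probe was tested when it was so called on at least 2 of the 6 arrays. Of the 12 probes, 10 passed, 1 for each gene. The second Notch1 probe was not well above background on any array, and the second Notch2 probe was so on undifferentiated array 1 only, with signals from 4.75 to 36.5 on the 6 arrays. A probe was called changed at an adjusted p under 0.05 in limma, and the study's own criterion, over 2-fold in size and under 0.05 in p before adjustment, was counted beside it.

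The promoters of the ligand genes are shown first because both Jagged genes had higher levels on the differentiated arrays, next to those of Hes5 and Hes7, classical targets that show what an RBPJ word looks like. Sequences are from RefSeq on build GRCm38.p6, on the strand of the gene. The Jag1 stretch (chr2:137116521-137116640) and the Jag2 stretch (chr12:112929496-112929615) lie on the minus strand and are the 120 bases that end just before the annotated start. The Hes5 stretch (chr4:154960673-154960886) and the Hes7 stretch (chr11:69120233-69120319) lie on the plus strand and reach at most 40 bases beyond the outer matches. Capitals mark the word GTGGGAA, the core of the RBPJ site, on either strand.
Jag1 promoter: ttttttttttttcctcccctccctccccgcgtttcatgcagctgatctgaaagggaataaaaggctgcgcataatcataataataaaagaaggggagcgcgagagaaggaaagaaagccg
Jag2 promoter: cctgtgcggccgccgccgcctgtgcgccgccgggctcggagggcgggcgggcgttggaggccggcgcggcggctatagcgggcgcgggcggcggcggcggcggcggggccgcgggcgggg
Hes5 promoter: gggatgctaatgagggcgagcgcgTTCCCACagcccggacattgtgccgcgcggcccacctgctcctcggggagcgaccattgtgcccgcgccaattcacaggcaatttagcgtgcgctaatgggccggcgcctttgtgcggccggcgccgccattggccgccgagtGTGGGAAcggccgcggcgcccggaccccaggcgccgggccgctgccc
Hes7 promoter: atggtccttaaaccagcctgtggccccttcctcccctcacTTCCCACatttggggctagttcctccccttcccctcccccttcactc
The word was searched on both strands in the 250 bases before the start and was found in 1779 of 32851 mouse promoters, or 5.42%. The table held 8 promoters of the 7 receptor and ligand genes, of which 0 contained it, and did not list Hes1, Hey1 or Heyl, which were not searched. Hes5 had 2 matches, beginning 226 and 83 bases before its start, Hes7 had 1, beginning 180 bases before its start, and Hey2 had 1, beginning 207 bases before its start. These targets were chosen as examples of the word, so no contrast with the 8 promoters is drawn. Among the 4 genes shown, the probes of Jag1 and Hes7 were well above background on all 6 arrays, that of Jag2 on 3, and that of Hes5 on 1.

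**Figure D1:**
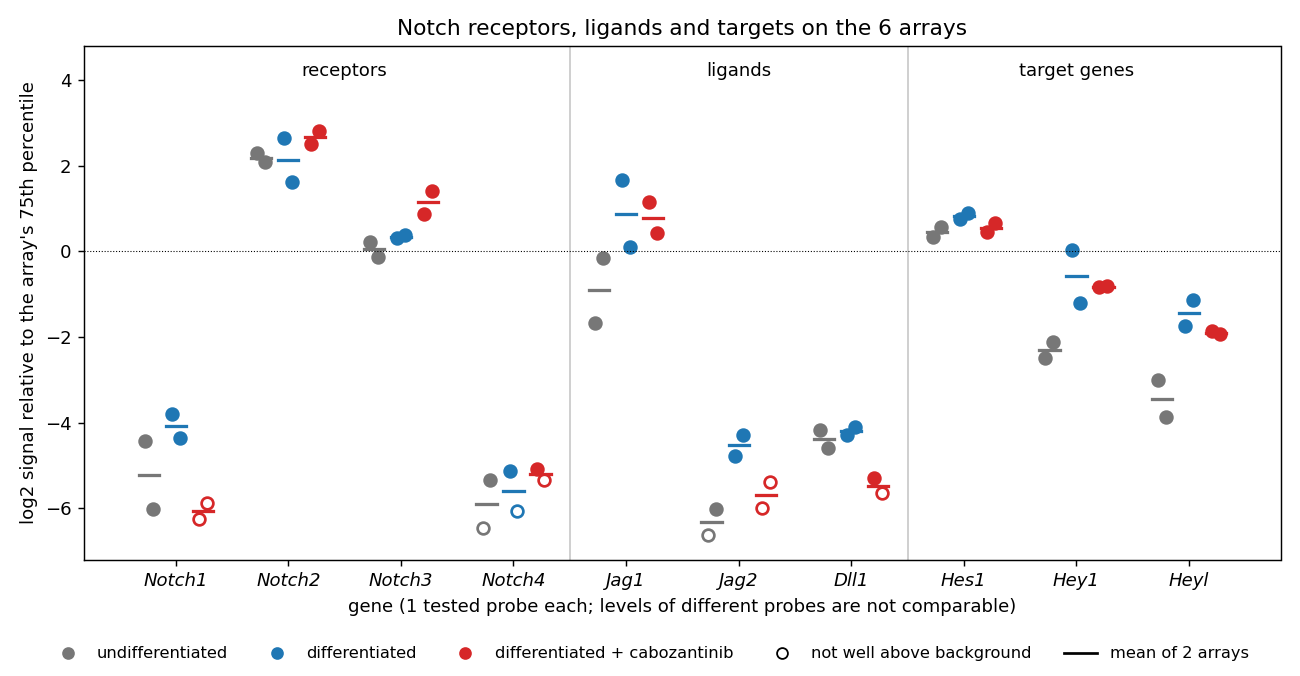
Log2 signal of the 10 genes relative to each array's 75th percentile, with 1 point per array, a bar at the mean of 2 arrays, and open points where the probe was not well above background. Notch1, Notch3, Jag1, Jag2, Hes1, Hey1 and Heyl lie higher on both differentiated arrays than on both undifferentiated arrays, and the cabozantinib-treated points of Notch1, Jag2, Dll1, Hes1 and Heyl lie below both differentiated ones. The share of all probes that separate in this way was not counted.

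The Notch target Heyl rose on differentiation of the osteoblasts, the dim probe of the ligand Jag2 was called higher, and the differences of Hey1 and Jag1 were of similar size without passing the adjusted test. Among the 10 genes, 9 had a positive difference between differentiated and undifferentiated osteoblasts and 1 a negative one, with a median of 0.77 on the log2 scale, against a median of 0.08 over all probes tested. The 2 genes with an adjusted p under 0.05 were both higher, where 4.97% of all probes were called higher and 5.06% lower. The study's criterion was met by 4 genes, all higher (Jag1, Jag2, Hey1 and Heyl), where 10.1% of all probes met it upward and 11.1% downward.

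Heyl, a Hey family repressor, had log2 levels of -3.00 and -3.87 in undifferentiated, -1.74 and -1.14 in differentiated and -1.87 and -1.93 in treated osteoblasts. All 4 arrays from differentiation medium were above both undifferentiated ones, and the same held for the signals before scaling, at 77.9 and 121 in undifferentiated, 327 and 295 in differentiated and 350.0 and 253 in treated osteoblasts. Heyl rose 3.99-fold on differentiation (log2 difference 2.00 ± 0.54 SE, limma adjusted p = 0.0443). Hey1, the paralog of Heyl, had levels of -2.48 and -2.12 in undifferentiated, 0.04 and -1.20 in differentiated and -0.84 and -0.81 in treated osteoblasts. Here too both undifferentiated arrays were the lowest, while the 2 differentiated arrays lay on either side of the treated ones. Before scaling the groups overlapped, with signals of 112 and 409 in undifferentiated, 1125 and 282 in differentiated and 714 and 548 in treated osteoblasts. The difference of Hey1 on differentiation was 3.29-fold (log2 1.72 ± 0.55 SE), with an unadjusted p of 0.0115 and an adjusted p of 0.0884. Hes1, which many signals besides Notch induce, had levels of 0.33 and 0.57, then 0.76 and 0.90, then 0.45 and 0.66. Its difference on differentiation was 0.38 ± 0.48 SE (adjusted p = 0.814), and the 95% interval ran from 0.619-fold to 2.75-fold, so that a rise of the size seen for Hey1 lay outside it.

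Of the ligands, Jag2 had a dim probe, with levels of -6.62 and -6.01 in undifferentiated, -4.78 and -4.29 in differentiated and -5.98 and -5.38 in treated osteoblasts. It was well above background on both differentiated arrays, on 1 of the 2 undifferentiated arrays and on neither treated array. The measured difference of Jag2 on differentiation was 3.43-fold (log2 1.78 ± 0.48 SE, adjusted p = 0.0454), but its size rests in part on undifferentiated array 1, where the signal of 6.36 was not well above background, and it was 0.18 with normexp (adjusted p = 1). Jag1, the Jagged ligand best known in the osteoblast lineage, had levels of -1.66 and -0.15 in undifferentiated, 1.66 and 0.09 in differentiated and 1.16 and 0.42 in treated osteoblasts. The undifferentiated arrays were lowest, but the 2 arrays of a condition lay over 1.5 log2 units apart in both undifferentiated and differentiated osteoblasts, and before scaling the groups overlapped, at 197 and 1601, then 3457 and 693, then 2849 and 1290. The difference of 3.44-fold (log2 1.78 ± 0.70 SE) had an adjusted p of 0.169, and it was 0.45 without undifferentiated array 1 (adjusted p = 0.419), 3.11 without undifferentiated array 2 (0.0457), 0.80 without differentiated array 1 (0.900) and 2.76 without differentiated array 2 (0.0402). Wherever 1 array is left out, the lone array of that condition is assumed to vary like the arrays of the others. Without 1 differentiated or 1 treated array, the SE of a comparison was also the same for all 10 genes. On differentiation it was 0.91 without a differentiated array and 0.73 without a treated array. A call lost or kept in such a fit therefore does not reflect the spread of a single gene. Dll1, a Delta-like ligand, was the 1 gene with repeated spots, 10 on each array. Its levels were -4.16 and -4.59 in undifferentiated, -4.29 and -4.11 in differentiated and -5.30 and -5.64 in treated osteoblasts. The undifferentiated and differentiated arrays overlapped, with a difference of 0.17 ± 0.49 SE (adjusted p = 0.947).

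No receptor passed the test on differentiation. Notch1 had levels of -4.42 and -6.02 in undifferentiated, -3.79 and -4.35 in differentiated and -6.25 and -5.88 in treated osteoblasts. Both differentiated arrays were highest, with a difference of 1.15 ± 0.58 SE against undifferentiated osteoblasts (adjusted p = 0.304). Notch2, the receptor with a well-described part in osteoclast precursors as well as osteoblasts, was measured above background throughout, at 2.29 and 2.09, then 2.64 and 1.61, then 2.51 and 2.82. Its undifferentiated arrays lay between the 2 differentiated ones, with a difference of -0.06 ± 0.53 SE (adjusted p = 0.986). Notch3, known for its role in the mural cells of vessels, had levels of 0.23 and -0.14 in undifferentiated, 0.31 and 0.39 in differentiated and 0.88 and 1.40 in treated osteoblasts. The 3 conditions did not overlap and stood in that order, but the step on differentiation was 0.30 ± 0.50 SE (adjusted p = 0.887). Notch4, a receptor of endothelial cells, was dim, at -6.45 and -5.33, then -5.13 and -6.05, then -5.09 and -5.33, and was well above background on 1 of the 2 arrays of each condition. Its difference on differentiation was 0.30 ± 0.58 SE (adjusted p = 0.916).

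The 2 calls stood near the threshold. For Heyl the log2 difference ranged from 1.19 to 2.57 over 15 other settings, of which 8 kept an adjusted p under 0.05, and for Jag2 from 0.18, with normexp background correction, to 1.87 over 14 settings, of which 6 kept it. Leaving out either differentiated array ended both calls, with adjusted p of 0.0703 and 0.58 for Heyl and 0.368 and 0.335 for Jag2, leaving out undifferentiated array 2 gave 0.0925 and 0.0530 in the same order, leaving out either treated array gave 0.0614 and 0.120, and without undifferentiated array 1 both held at 0.0302 and 0.0351.

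**Figure D2:**
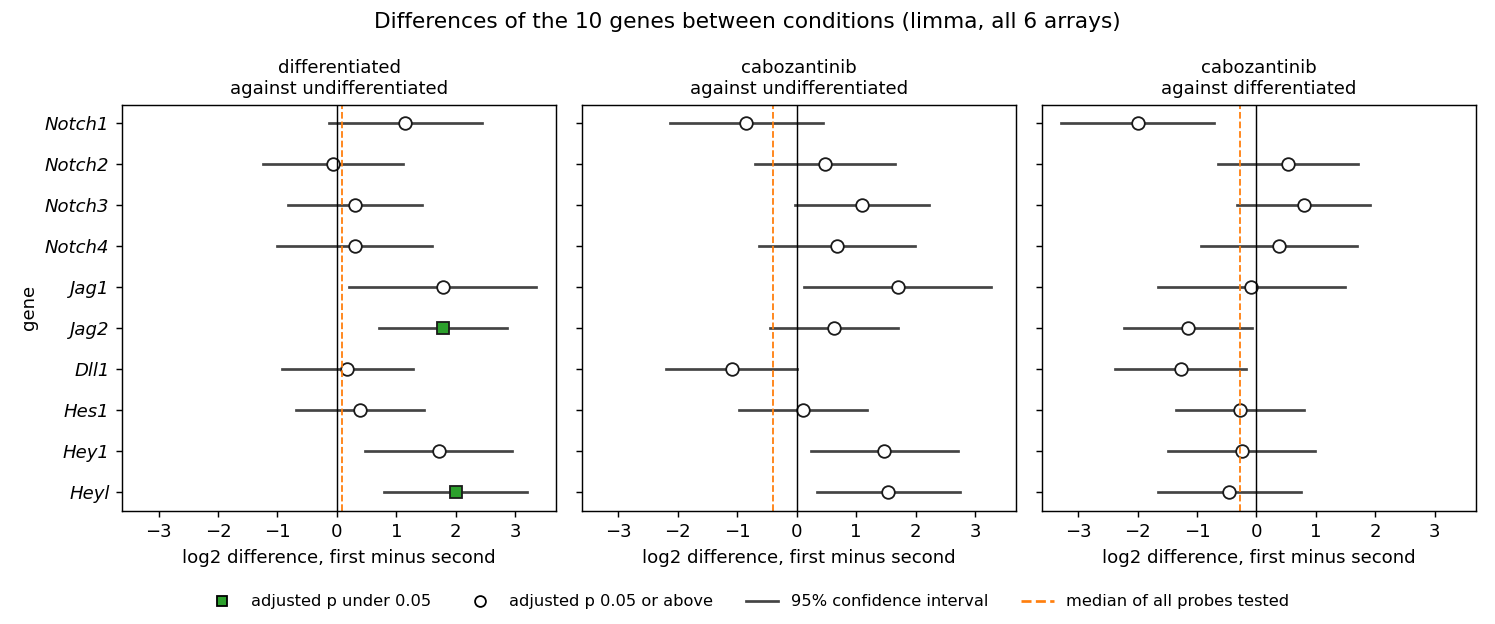
Log2 differences of the 10 genes in the 3 comparisons from limma on all 6 arrays, with 95% confidence intervals, squares where the adjusted p was under 0.05 and a dashed line at the median of all probes tested. Jag2 and Heyl are called in differentiated against undifferentiated osteoblasts and no gene is called in the other 2 comparisons.

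Markers of other cells moved on differentiation as well. The summed level of 8 tested macrophage and osteoclast markers, as multiples of each array's 75th percentile, was 96.3 and 56.2 in undifferentiated, 328 and 497 in differentiated and 303 and 376 in treated osteoblasts, and 4 of the 8 had risen by the adjusted test on differentiation and 0 had fallen. The same sum over 6 adipocyte markers went from 5.04 and 5.64 to 65.4 and 90.9 and stood at 56.0 and 56.1 with cabozantinib, with 4 of the 6 called higher on differentiation. Of the endothelial list, Tek, Tie1 and Erg were not well above background on any array, the sum over 6 tested markers was 4.86 and 2.71, then 2.23 and 3.10, then 1.86 and 2.34, and 1 marker was called, Cdh5, higher by 2.18 ± 0.50 SE (adjusted p = 0.0228). Of the mural list, Rgs5, Myh11 and Kcnj8 were not well above background on any array, the sum over 7 tested markers lay between 228 and 468, and 0 of the 7 were called on differentiation. Of 12 tested osteoblast markers 5 were called higher and 1 lower on differentiation, while Runx2 was well above background on 3 arrays and Sp7 on 4, with differences of -1.92 (adjusted p = 0.0775) and -1.85 (0.0696). Of 7 chondrocyte markers 3 were called higher (Col9a1, Col10a1 and Matn1) and 0 lower, with sums of 194 and 93.6, then 120 and 220, then 131 and 173, written here as multiples of the same percentile. Of 6 tested skeletal muscle markers 2 were called lower (Actn3 and Chrna1) and 0 higher, with sums of at most 0.917 on any array. Each sum is weighted to the brightest probes of its list, so it need not follow the other markers. Among the chondrocyte markers the brightest was Col2a1, with a difference of 0.11 ± 0.61 SE on differentiation. The part of these cells in the differences of Heyl, Jag2, Hey1 and Jag1 was not tested.

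Osteoblasts differentiated with cabozantinib were set against the same undifferentiated arrays, so this comparison shares its controls with the one above and is given as values only beside it. Heyl was higher by 1.54 ± 0.54 SE (2.91-fold, adjusted p = 0.0824), Hey1 by 1.47 ± 0.55 SE (2.78-fold, adjusted p = 0.101) and Jag1 by 1.70 ± 0.70 SE (3.24-fold, adjusted p = 0.130). These 3 genes met the study's criterion upward, where 7.82% of all probes met it upward and 24.2% downward. Notch3 was higher by 1.10 ± 0.50 SE (2.14-fold), with an unadjusted p of 0.0540 and an adjusted p of 0.164. Jag2 was not well above background on either treated array, and its measured difference of 0.63 had an adjusted p of 0.414. Dll1 was lower, at -1.10 ± 0.49 SE (adjusted p = 0.158). On this scaling the bound put Notch1 at least 1.20-fold lower, because neither treated array measured it above background. The arrays of Notch1 overlapped, however, and the 95% interval ran from 0.228-fold to 1.36-fold (adjusted p = 0.353), so no fall was shown. Its difference was 0.065 with quantile normalization. Notch2, Notch4 and Hes1 had differences of 0.47, 0.68 and 0.11, with adjusted p of 0.602, 0.474 and 0.914. In all, 0 of the 10 genes were called by limma, where 4.47% of all probes were called higher and 9.19% lower, and 3 had an unadjusted p under 0.05. The median of the 10 genes was 0.66 while that of all probes was -0.40 (-0.14 with quantile normalization). Heyl was called without undifferentiated array 1 (2.11, adjusted p = 0.0456), and Jag1 (3.03, adjusted p = 0.0249) and Notch4 (1.53, adjusted p = 0.0461) without undifferentiated array 2.

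The comparison of cabozantinib-treated with differentiated osteoblasts asks which genes the drug changed in cells kept in the same medium. None of the 10 genes passed the adjusted test. The dim probes of Notch1, Jag2 and Dll1 had lower levels with cabozantinib on both arrays, as had Hes1 and Heyl by smaller amounts, Notch3 had higher levels on both, and the other 4 genes overlapped. The share of all probes that separated in this way was not counted, so these separations are description only. In limma 0 of the 10 genes were called, where 0.14% of all probes were called higher and 2.56% lower, and 3 had an unadjusted p under 0.05. These same 3 met the study's criterion, all lower (Notch1, Jag2 and Dll1), where 20.3% of all probes met it downward and 2.97% upward. The 10 genes had 3 positive and 7 negative differences with a median of -0.26, against a median of -0.27 over all probes, which was -0.06 with quantile normalization. The comparison uses the same differentiated arrays as the one on differentiation.

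Of the receptors, Notch1 was not measured on either treated array. Both treated levels, at -6.25 and -5.88, were below both differentiated arrays, at -3.79 and -4.35. On this scaling the bound put Notch1 at least 2.65-fold lower with cabozantinib, with an unadjusted p of 0.00633 and an adjusted p of 0.0777. Its measured log2 difference of -1.99 ± 0.58 SE was -1.72 relative to the median probe. The bound leaves out the spread between arrays, and the 95% interval ran from 0.103-fold to 0.612-fold. The bound holds for this scaling only, since the difference was -1.16 with quantile normalization (adjusted p = 0.301), -1.15 in the authors' values (0.302) and -0.70 with normexp (1). The adjusted p was 0.0574 without the replicate term, 0.0119 when the undifferentiated arrays were left out as well, and 0.0325 when 1 undifferentiated array was left out and the term kept. Notch3 went the other way, with both treated arrays above both differentiated ones. The difference was 0.80 ± 0.50 SE, or 1.74-fold (adjusted p = 0.411), and 1.07 relative to the median probe, and it lay between 0.47 and 1.13 over 15 other settings. Notch2 differed by 0.53 ± 0.53 SE (adjusted p = 0.669), with 1 treated array between the differentiated ones and 1 above them. Its untested second probe stood at -6.73 and -7.10 in differentiated and -5.85 and -5.30 in treated osteoblasts, well above background on none of these arrays. The paper lists Notch2 as raised over 2-fold by cabozantinib on its arrays, but not by real-time RT-PCR. It does not say which probe that value came from. On the tested probe the authors' deposited values gave a log2 difference of 0.59 (limma adjusted p = 0.561), short of 2-fold. Notch4 differed by 0.38 ± 0.58 SE (adjusted p = 0.830) with overlapping arrays.

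Of the ligands, Jag2 was measured on both differentiated arrays and on neither treated array. On this scaling the bound put Jag2 at least 1.89-fold lower with cabozantinib, with an unadjusted p of 0.0387 and an adjusted p of 0.185. The bound leaves out the spread between arrays, and the 95% interval ran from 0.214-fold to 0.950-fold. For Jag2 too the bound holds for this scaling only, the difference being -0.31 with quantile normalization (adjusted p = 0.736) and -0.63 with normexp (1). Dll1 was lower on both treated arrays than on both differentiated arrays, by 2.41-fold (log2 -1.27 ± 0.49 SE), with an unadjusted p of 0.0281 and an adjusted p of 0.156 (0.0427 when either undifferentiated array was left out). On the 10 spots of Dll1, 8 of the 10 kept on differentiated array 1 and 8 of the 9 kept on differentiated array 2 were well above background, against 7 of 10 on treated array 1 and 0 of 10 on treated array 2. Jag1 overlapped between the conditions, with a difference of -0.09 and a 95% interval from 0.317-fold to 2.80-fold (adjusted p = 0.979), too wide to tell a 2-fold change in either direction from none.

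The target genes did not pass the test with cabozantinib either. Heyl was lower on both treated arrays than on both differentiated arrays, by 0.46 ± 0.54 SE on the log2 scale (adjusted p = 0.746), with a 95% interval from 0.318-fold to 1.68-fold. Hey1 differed by -0.24 ± 0.55 SE (adjusted p = 0.905, interval 0.359-fold to 1.99-fold), and its treated arrays lay between the 2 differentiated ones. Hes1 differed by -0.27 ± 0.48 SE (adjusted p = 0.862, interval 0.393-fold to 1.74-fold), which was equal to the shift of the median probe. These intervals do not show that the target genes are alike in the 2 conditions.

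The arrays of cabozantinib-treated osteoblasts were read in a scan of their own, apart from that of the other 4 arrays, so scan and cabozantinib cannot be told apart. The treated arrays also had the fewest spots well above background, 58.8% and 58.9% against 61.1% to 72.9% on the others, and the probes of Notch1, Jag2 and Dll1 had signals of at most 79.4, 39.9 and 73.7 on any array. With quantile normalization their differences were -1.16, -0.31 and -0.46, and the part of detection in them was not tested.

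**Figure D3:**
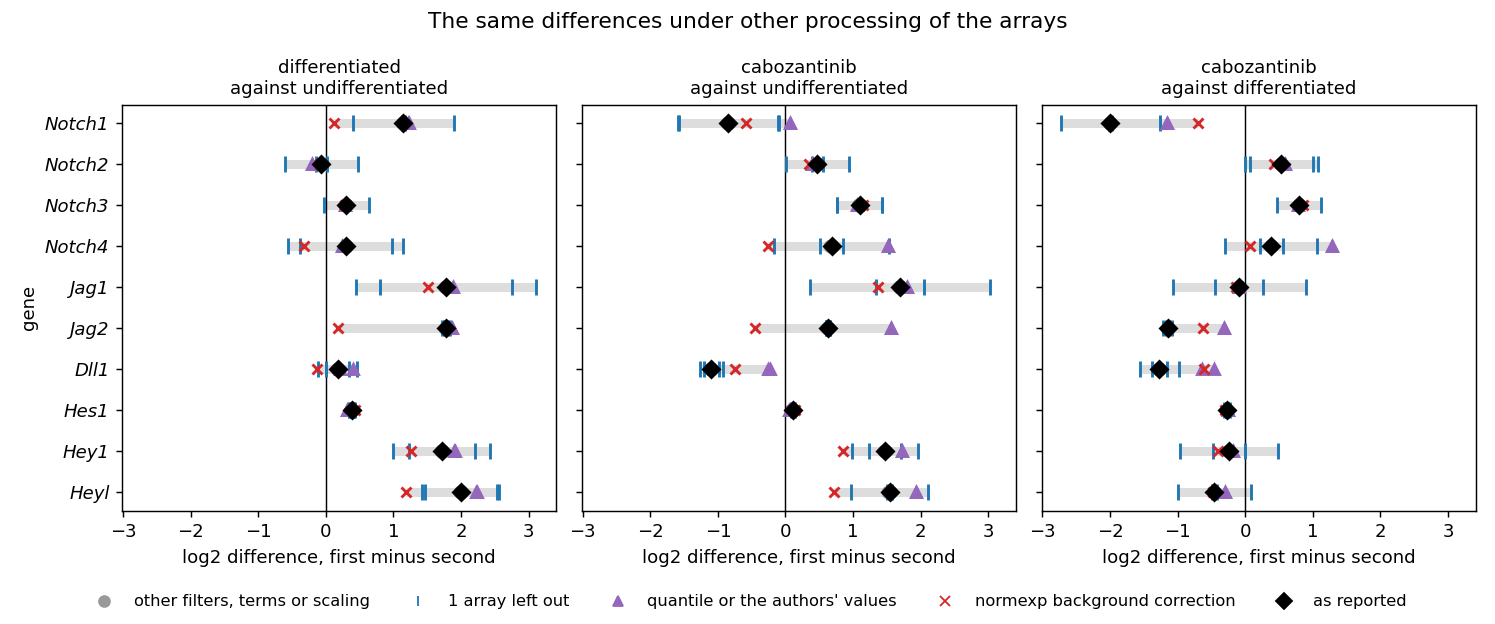
The same log2 differences for each gene under every setting tried, with a diamond for the value as reported and a grey bar from the lowest to the highest value; settings that alter only filters or error terms fall under the diamond. Jag1, Hey1 and Heyl stay above 0 in both comparisons with undifferentiated osteoblasts and Notch3 in both comparisons with treated ones, while Notch4 crosses 0 in all 3.

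The rest of the pathway was read from a list of 47 other genes, of which 38 had a tested probe. On differentiation 24 of the 38 were higher and 14 lower, with a median of 0.28, and 2 were called higher and 1 lower, against 4.97% and 5.06% of all probes. Mfng, a Fringe glycosyltransferase that adds sugars to the receptors and alters their response to ligands, had levels of -2.22 and -2.91 in undifferentiated, 0.46 and 0.87 in differentiated and -0.82 and -0.41 in treated osteoblasts. The 3 conditions did not overlap, with the differentiated arrays highest, and Mfng rose 9.40-fold on differentiation (log2 3.23 ± 0.52 SE, adjusted p = 0.00430) and kept an adjusted p under 0.05 in all 15 other settings. Its second probe also rose, by 2.17 ± 0.48 SE (adjusted p = 0.0195). The other Fringe genes on the list, Lfng and Rfng, had differences of 0.47 and -0.06, with adjusted p of 0.739 and 0.987.

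Dlk1, a Delta-like protein known as a marker of preadipocytes and lacking the domain by which classical ligands bind Notch, had levels of 0.86 and 0.03 in undifferentiated, 2.91 and 2.53 in differentiated and -0.76 and -0.45 in treated osteoblasts. The treated arrays were below both other conditions. The paper also lists Dlk1 as lowered by cabozantinib on these arrays. When it turned to Dlk1 mRNA in differentiated osteoblasts, treated or not, it found the levels too low for an accurate measurement. By its brighter probe Dlk1 rose 4.84-fold on differentiation (log2 2.28 ± 0.51 SE, adjusted p = 0.0207), while a second, dimmer probe gave 1.06 ± 0.55 SE (adjusted p = 0.335). By the brighter probe Dlk1 was 10.0-fold lower with cabozantinib than without (log2 -3.32 ± 0.51 SE, adjusted p = 0.0474). The latter call held in 7 of 15 other settings with the difference between -3.78 and -2.86 and was lost without differentiated array 2 (adjusted p = 0.0517) or treated array 1 (0.305), the former was lost without undifferentiated array 2 (0.0669) or either differentiated array (0.147 and 0.120), and the dimmer second probe gave -1.69 ± 0.55 SE (adjusted p = 0.105). Dner, a Notch-binding protein best known from neurons, fell on differentiation from 1.12 and 1.32 to -0.76 and -0.77 (log2 difference -1.99 ± 0.48 SE, adjusted p = 0.0281), a call that held in 8 of 15 other settings, among those with 1 array left out only without undifferentiated array 1 (adjusted p = 0.0291), and stood at -0.49 and -0.33 with cabozantinib.

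Dll3, a divergent Delta ligand that does not activate Notch on neighboring cells, had levels of 0.19 and -0.13 in undifferentiated, -0.12 and 0.48 in differentiated and -2.32 and -2.15 in treated osteoblasts. It did not differ on differentiation beyond the spread (0.15 ± 0.50 SE, adjusted p = 0.956) and was 5.34-fold lower with cabozantinib than in differentiated osteoblasts (log2 -2.42 ± 0.50 SE, adjusted p = 0.0474), a call that held in 5 of 15 other settings and was lost without either differentiated array (0.0891 and 0.477) or either treated array (0.460 and 0.226). The second Dll3 probe differed by less, at -0.79 ± 0.53 SE (adjusted p = 0.448). Dlk1 and Dll3 were the 2 genes of the 38 called in this comparison, both lower, against 2.56% of all probes called lower and 0.14% higher, and 0 of all probes were called with quantile normalization, the authors' values, normexp or no filter on dim probes. The median of the 38 was -0.17, that of all probes -0.27. In treated against undifferentiated osteoblasts the brighter Mfng probe was called higher (1.95 ± 0.52 SE, adjusted p = 0.0383) and the brighter Dll3 probe lower (-2.27 ± 0.50 SE, adjusted p = 0.0205). The second probes were not called, at 1.04 ± 0.48 SE for Mfng (adjusted p = 0.170) and -0.62 ± 0.53 SE for Dll3 (adjusted p = 0.471). Both calls of the brighter probes were lost without either treated array, and the median of the 38 was 0.08.

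**Figure D4:**
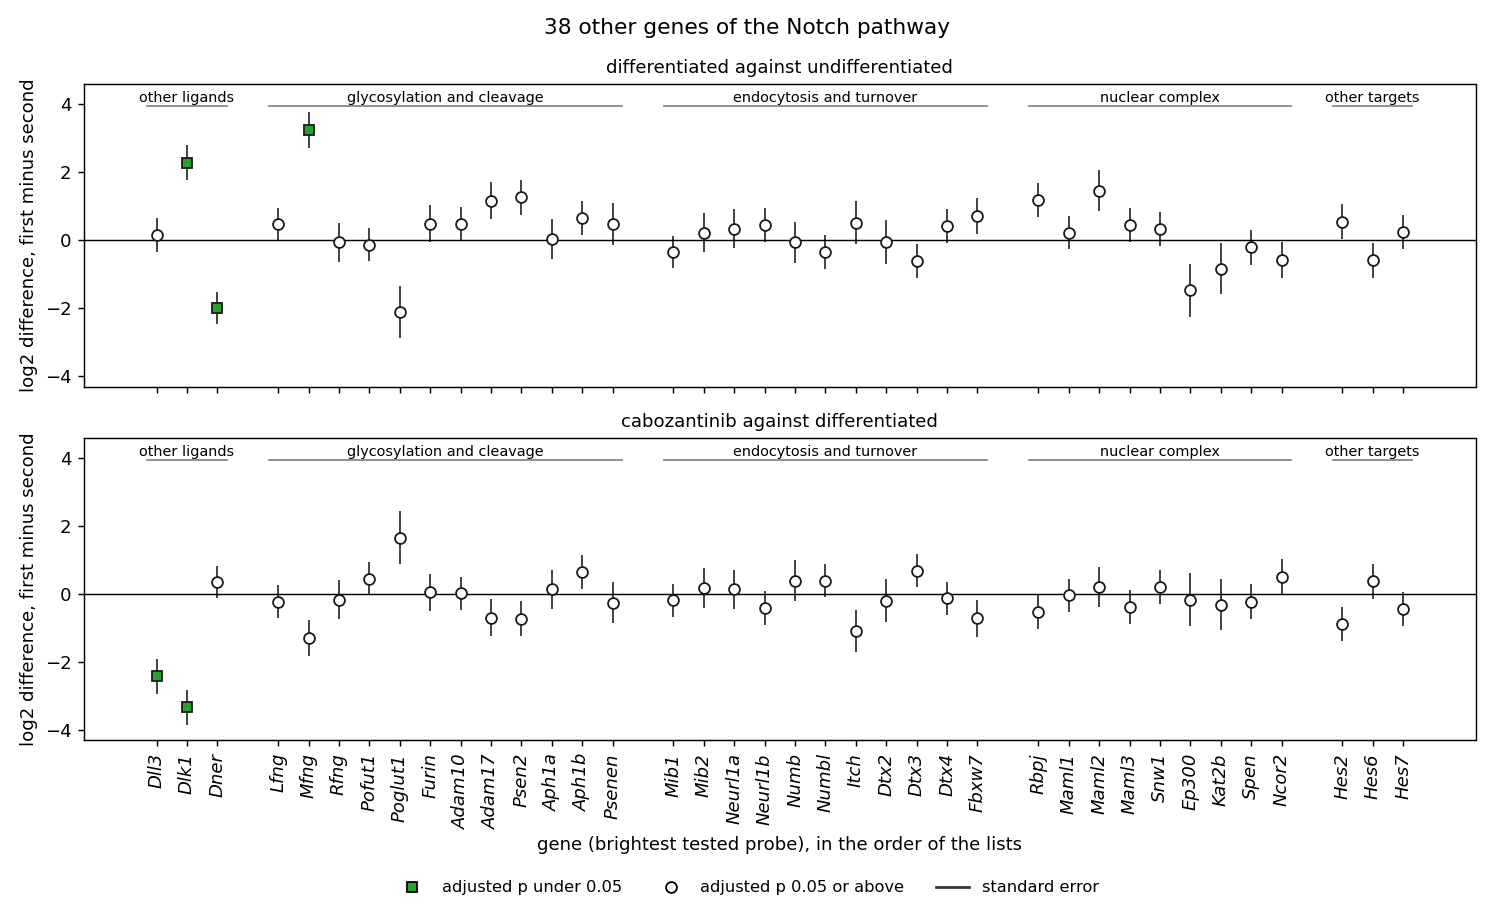
Log2 differences with standard errors for the 38 other genes of the pathway, by role, in differentiated against undifferentiated osteoblasts (top) and cabozantinib-treated against differentiated osteoblasts (bottom), with squares where the adjusted p was under 0.05. Mfng, Dlk1 and Dner are called in the top panel and Dll3 and Dlk1 in the bottom one.

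By role, the calls lay among the other ligands and the glycosylation and cleavage genes. All 9 genes of the nuclear complex were tested and 0 were called in any comparison, Rbpj and Maml2 meeting the study's criterion upward on differentiation at 1.19 and 1.45 (adjusted p = 0.200 and 0.188). Of 11 tested genes of ligand and receptor endocytosis and turnover 0 were called in any comparison, with differences between -0.61 and 0.71 on differentiation. Among the other targets, Hes2, Hes6 and Hes7 were tested and 0 were called, with differences of 0.55, -0.59 and 0.24 on differentiation and -0.87, 0.38 and -0.44 with cabozantinib, while Hes3, Hes5, Hey2 and Nrarp were well above background on at most 1 array and were not tested. In the comparison with cabozantinib, Cdh5 of the endothelial list and Abcc9 of the mural list were also called lower, at -2.40 ± 0.50 SE and -2.31 ± 0.48 SE (adjusted p = 0.0474 for both), and were named after their values were seen. Of the tested markers, 2 endothelial ones were higher and 4 lower, and 4 mural ones were higher and 3 lower. Abcc9 was well above background on 3 arrays and on neither treated array. Its treated levels of -7.09 and -7.19 lay below the dimmest signals well above background there, -5.52 and -5.43. The size of its difference was therefore not measured.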

How the data were processed

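Gene expression in 6 cultures was analyzed from the deposited scanner output of Agilent 1-color (Cy3) arrays and a table of the authors' log2 values. Per the file headers, Feature Extraction 11.0.1.1 had subtracted the background from the intensities and detrended them, without scaling between arrays. The authors' deposited log2 values cover 30439 probes, and the steps that made them are not given in the sources used here. Samples were grouped by the labels. Probes were named through RefSeq accessions in the scanner files, without a gene name column, which named 69.1% of 39429 probes. Control and outlier spots were left out, the spots of a probe were averaged on the log2 scale, and each array's 75th percentile over the probes was subtracted. The 27236 probes that the scanner flags put well above background on 2 or more of the 6 arrays were tested with limma 3.58.1 in R 4.3.3, with condition and replicate number as terms because the study's statistics name a paired test, with Benjamini-Hochberg adjustment over all of them. A group without any array well above background was given a bound, the brighter group's mean against the dim group's mean of, per array, the higher of the lowest signal well above background and the probe's own. The bound allows for detection only and not for the spread between arrays. Alternatives were normexp with an offset of 50 on the median spot and background intensities (the mean signal that had been planned was not used), quantile scaling, the authors' values, other filters, other terms, a variance trend, and each array left out. They are not independent, so counts of settings are not counts of separate tests. Quantile scaling and the authors' values nearly coincided for most of the 10 genes. Leaving out either undifferentiated array gave the same result for treated against differentiated osteoblasts. The 10 genes are named whatever they showed, and other pathway genes where the adjusted p of the brightest probe was under 0.05 in at least 1 comparison. The genes, lists and tests were chosen with earlier results of these data known. The fit was run on simulated data with independent noise and no scan, replicate or detection effects. That checks the working of the code only, not how the fit performs on arrays like these. Precision is limited by 2 arrays per condition. Figures were drawn with matplotlib 3.10.9.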

Additional observations from a re-analysis of the deposited data

How the results depend on the processing

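The count of the 10 genes called on differentiation (2) went to 0 with normexp or without a filter on dim probes and to 1 among probes well above background on all 6 arrays (which leaves out Jag2), and lay between 0 and 2 with 1 array left out. In treated against undifferentiated osteoblasts it went from 0 to 1 without the replicate block (Heyl) and with only the arrays compared and no block (Hey1), and lay between 0 and 2 with 1 array left out. In treated against differentiated osteoblasts it went from 0 to 2 with only the arrays compared and no block (Notch1 and Dll1; 0 without the block alone) and lay between 0 and 3 with 1 array left out, with Notch1, Jag2 and Dll1 called when either undifferentiated array was missing. Differences changed sign with normexp for Dll1 (-0.13) and Notch4 (-0.33) on differentiation and for Jag2 (-0.45) and Notch4 (-0.26) in treated against undifferentiated osteoblasts, where Notch1 became 0.065 with quantile normalization and 0.070 in the authors' values, and the cause was not tested. With 1 array left out, differences that changed sign ranged from -0.11 to 0.46 (Dll1), -0.61 to 0.48 (Notch2), -0.031 to 0.63 (Notch3) and -0.55 to 1.15 (Notch4) on differentiation, from -0.17 to 1.53 (Notch4) in treated against undifferentiated osteoblasts, and from -0.96 to 0.48 (Hey1), -0.99 to 0.080 (Heyl), -1.06 to 0.89 (Jag1), -0.0084 to 1.08 (Notch2) and -0.29 to 1.06 (Notch4) in treated against differentiated ones. None of these was called in the fit as reported. Over all alternatives, 120 of the values of single genes on differentiation kept their direction and side of the threshold, 3 gained a call, 15 lost one and 8 changed sign. The numbers were 136, 5, 0 and 5 in treated against undifferentiated and 132, 8, 0 and 6 in treated against differentiated osteoblasts.

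The number of all probes called in treated against differentiated osteoblasts, 734, was 0 with quantile normalization, the authors' values, normexp or no filter, 1 with the percentile taken over spots (added after the data were seen), 2 among probes well above background on all arrays, 3414 without the replicate block and 5614 with only the arrays compared and no block. On differentiation 2730 probes became 756 with normexp and 1729 without a filter, and in treated against undifferentiated osteoblasts 3719 became 1527 with quantile normalization, 1509 in the authors' values, 513 with normexp, 1385 without a filter, 1551 among probes well above background on all arrays and 6653 without the replicate block. With 1 array left out the 3 counts lay between 1589 and 5313 on differentiation, 823 and 9961 in treated against undifferentiated and 49 and 6475 in treated against differentiated osteoblasts. Same-numbered arrays had deviations that correlated at -0.51, -0.53 and 0.27 between conditions, which cannot show whether the numbers pair the cultures. Dropping the replicate block left the count of called genes at 2 on differentiation and 0 in treated against differentiated osteoblasts. Slide was not analysed here, scan could not be fitted as a term, and the mean of a gene's probes gave no other value because 1 probe per gene was tested. Precision is limited by 2 arrays per condition, and Notch1, Notch4, Jag2 and Dll1 were not well above background on every array.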
